A study of Mus musculus with 10 samples.

Results

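The transcripts of 8 genes of the myosin motor of the heart were measured in the left ventricular posterior wall of mice that lack the melanocortin 4 receptor and of wild type mice. They are the heavy chain genes Myh6, Myh7, Myh7b and Myh14, the light chain genes Myl2 and Myl3, and the kinase genes Mylk3 and Mylk4. The 8 genes were chosen by name, and each matched 1 of the 24160 gene rows of the table through its RefSeq accession. RefSeq also lists Myh14 as an older name of Myh7b, so the match was made by accession. There were 6 MC4R-/- and 4 WT libraries of polyadenylated RNA. All came from C57BL6/J mice bred from heterozygous pairs and kept at 24 °C for 30 weeks. Melanocortin 4 receptor signalling in the hypothalamus limits feeding and body weight, and the series title ties its loss to dilated cardiomyopathy. Whether each library came from its own mouse is not in the labels. The p-values therefore speak of the spread among these libraries, which may be technical in part.

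Muscle myosin is built from a pair of heavy chains, which carry the ATPase head, and each head binds an essential and a regulatory light chain. In adult mouse ventricle the fast alpha heavy chain, encoded by Myh6, prevails. The slower beta heavy chain, encoded by Myh7, is the main form before birth in the mouse and often returns in hypertrophied or failing ventricle. Myl2 encodes the ventricular regulatory light chain, whose phosphorylation by the cardiac myosin light chain kinase Mylk3 modulates contraction, and Myl3 encodes the ventricular essential light chain. Myh7b is an old relative of the cardiac heavy chains, Mylk4 a further kinase of the same family, and Myh14 the heavy chain of nonmuscle myosin IIC.

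Each of the 3 striated heavy chain genes hosts a microRNA, and these are shown because they belong to the same transcription units as the heavy chains compared here. Mature sequences are from RefSeq (GRCm38.p6), 5′ to 3′, with the seed (bases 2 to 8) in capitals. The hosts are Myh6 for miR-208a-3p at chr14:54949072-54949093 (minus strand), Myh7 for miR-208b-3p at chr14:54975710-54975731 (minus strand) and Myh7b for miR-499-5p at chr2:155622893-155622913 (plus strand). No base of the 3 precursors lay in an annotated exon of the host transcripts that carry the accessions of the table.
miR-208a-3p: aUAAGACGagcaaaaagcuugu
miR-208b-3p: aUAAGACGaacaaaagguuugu
miR-499-5p: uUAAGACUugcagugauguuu
The seeds of miR-208a-3p and miR-208b-3p were identical. The precursor rows of all 3 were listed at 0 reads in all 10 libraries, and a poly(A) library is not made to capture such short RNAs.

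Myh6 and Myh7 lie in tandem on the minus strand of chromosome 14, Myh7 from 54970684 to 54994626 and Myh6 from 54941921 to 54968017 (GRCm38.p6). Only 2666 bases separate the annotated loci. The 250 bases before an annotated start are printed for both, and for Mylk3 on chromosome 8, the gene whose groups did not overlap. The rows of Myh6 and Mylk3 each name 2 transcripts with starts of their own in GENCODE, at 54966605 and 54966641 for Myh6 and at 85365324 and 85380978 for Mylk3. The windows printed belong to the lower coordinate of each (within 2 bases), which on the minus strand is the downstream start. Both lie inside the annotated loci (Mylk3 from 85324928 to 85386340), and the Myh6 window includes the other Myh6 start. Windows of the other starts were not used here. Capitals mark CATTCC on either strand, the core of the M-CAT element bound by TEAD factors.
Myh6, chr14:54966608-54966857, minus strand: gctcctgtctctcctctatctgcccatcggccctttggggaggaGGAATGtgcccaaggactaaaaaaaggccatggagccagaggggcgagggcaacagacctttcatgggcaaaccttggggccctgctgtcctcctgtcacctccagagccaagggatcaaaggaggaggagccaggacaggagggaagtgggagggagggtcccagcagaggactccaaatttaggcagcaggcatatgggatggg
Myh7, chr14:54994627-54994876, minus strand: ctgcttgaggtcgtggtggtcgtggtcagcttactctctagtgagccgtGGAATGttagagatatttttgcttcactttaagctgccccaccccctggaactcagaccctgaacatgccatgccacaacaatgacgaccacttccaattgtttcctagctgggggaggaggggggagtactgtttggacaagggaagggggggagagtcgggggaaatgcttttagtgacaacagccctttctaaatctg
Mylk3, chr8:85365325-85365574, minus strand: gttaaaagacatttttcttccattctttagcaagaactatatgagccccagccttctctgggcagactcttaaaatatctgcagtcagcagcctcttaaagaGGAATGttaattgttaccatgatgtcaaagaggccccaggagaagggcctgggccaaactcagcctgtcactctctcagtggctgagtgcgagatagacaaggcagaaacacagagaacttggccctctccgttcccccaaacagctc
All 3 windows held CATTCC once, on the reverse strand. CATTCC on either strand, in any number, was present in 12.6% of the 32851 RefSeq windows of this length. The other motifs searched on both strands were GATAAG (the site of the zinc-finger family that holds Gata4), TAAAAATA (a MEF2 site) and AGGTCA (the core of nuclear receptor sites), and none of these letter strings was in the 3 windows. They were in 6.55%, 2.45% and 14.0% of all windows. A match of letters is a description and not a bound site.

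The libraries held 4145033 to 6425785 reads assigned to genes, and the values are normalized counts, that is, reads divided by a size factor of the library. The targeted gene, Mc4r, had 4 reads over the MC4R-/- libraries and 2 over the WT libraries, too few to check the labels. The 8 cardiomyocyte markers, Myh6 and Myl2 among them, summed to 407424 to 463544 normalized counts in MC4R-/- (median 437481) and to 427678 to 475879 in WT (median 465872). Those of smooth muscle summed to 1741 to 2303 in MC4R-/- (median 1907) and to 2022 to 2431 in WT (median 2181). MC4R-/- replicate 5 also held atrial transcripts, with 720.2 normalized counts of Myl7, an atrial light chain, against 0 to 134 in the other 9 libraries. Lower levels of Myl7 were in MC4R-/- replicates 6 (134) and 2 (63.0) and in WT replicate 1 (48.1). The summed level of the 4 atrial markers (Myl7, Myl4, Sln and Nppa) ran from 539 to 3155 in MC4R-/- and from 504 to 1338 in WT. The 1338, in WT replicate 4, was nearly all Nppa (1332), with Myl7 at 0. The 5 lymphocyte markers summed to 6.97 to 18.2 in MC4R-/- and to 7.04 to 366 in WT, the highest in WT replicate 2. Markers of macrophages summed to 1020.1 to 1298 in MC4R-/- and 781 to 1022 in WT, and those of fibroblasts to 4981 to 5719 in MC4R-/- and 4338 to 5161 in WT. Their part in the results that follow was not tested. In bulk tissue, fewer cells of a type and less RNA per cell cannot be told apart.

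Per kilobase of transcript, the light chains were the most abundant of the 8, followed by Myh6, and the other heavy chains were far lower. Myl2 had 89106 ± 9014 normalized counts per kb in MC4R-/- (SD, n = 6) and 95428 ± 8380.2 in WT (SD, n = 4). Myl3 followed with 32911 ± 2089 per kb in MC4R-/- and 35088 ± 1861 in WT, then Myh6 with 24151 ± 2704 per kb in MC4R-/- and 26851 ± 2891 in WT. In both genotypes every library of Myl2 lay above every library of Myl3, and every library of Myl3 above every library of Myh6.

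The kinase Mylk3 stood next in level per kb, at 1160 ± 47.1 in MC4R-/- and 1381 ± 89.0 in WT, above Mylk4 at 296 ± 27.6 in MC4R-/- and 345.5 ± 53.2 in WT. Myh7 had 248 ± 52.4 per kb in MC4R-/- and 169 ± 86.6 in WT. Mylk4 and Myh7 did not differ beyond their spread in MC4R-/-, where 4 of 6 libraries had more Mylk4, but lay apart in WT. Myh14 (98.2 ± 12 per kb in MC4R-/-, 112 ± 15.2 in WT) and Myh7b (74.1 ± 12.9 per kb in MC4R-/-, 95.3 ± 19.1 in WT) overlapped in both genotypes, and Myh7 overlapped Myh14 in WT. Within a library, Myh14 was above Myh7b in 6 of 6 MC4R-/- and 3 of 4 WT. Myh7 was above Myh14 in 3 of 4 WT libraries. By normalized count, not corrected for length, Myh6 was the highest row of the whole table in all 10 libraries. It held 2.29 to 3.10% of the reads in MC4R-/- and 2.56 to 3.11% in WT.

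**Figure D1:**
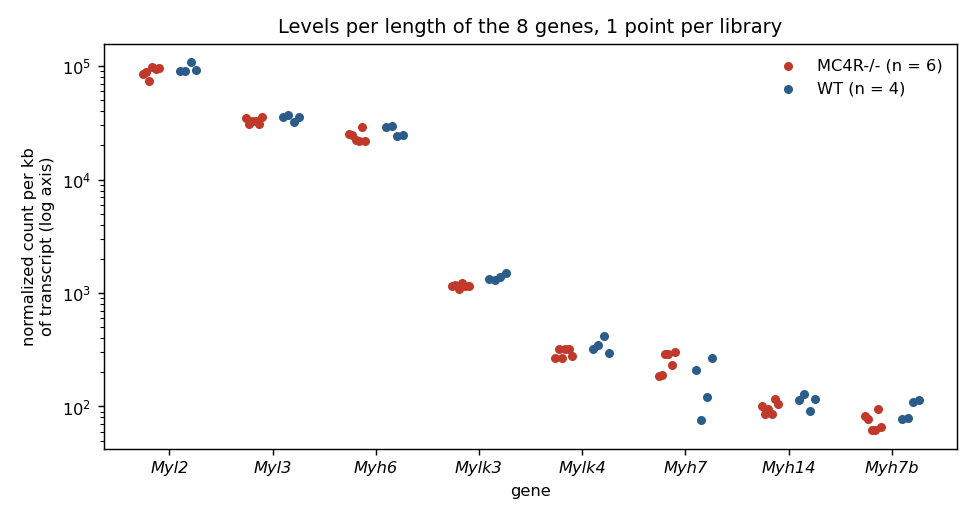
Normalized counts per kb of transcript (log axis) for the 8 genes, 1 point per library, MC4R-/- in red and WT in blue. Myl2, Myl3 and Myh6 lie at 21792 per kb or more in every library, while Myh7, Myh7b and Myh14 stay at or below 302 per kb.

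None of the 6 heavy and light chain genes among the 8 passed the test between the genotypes. Of the 8 genes, Mylk3 alone had groups of libraries that did not overlap, lower in MC4R-/-. Myh7, the beta chain, was the 1 gene with a higher mean log2 value in MC4R-/-, and its libraries overlapped widely. At an adjusted p of 0.05 over all genes, 0 of the 8 passed by limma with Benjamini-Hochberg adjustment, 0 by edgeR and 1, Mylk3, by DESeq2. The shares over all 14611 genes tested were 0.459%, 0.342% and 0.835%. All 8 had entered the test, which asked for a mean of at least 1 normalized count. At an unadjusted p below 0.05 there were 3 of 8 (Mylk3, Mylk4 and Myh7b), against 9.6% of all genes. A mean log2 value lower in MC4R-/- was found for 7 of 8, against 51.6% of all genes, and the median log2 fold change was -0.17 against -0.0055 over all genes. Libraries that did not overlap were found in 1 of 8 genes, against 2.28% of all genes.

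Among the heavy chains, Myh6 had 132071 normalized counts at the lowest, 142404.5 at the median and 174727 at the highest in MC4R-/- libraries, against 176034, 179649, 146911 and 148326 in WT replicates 1 to 4. The groups overlapped: MC4R-/- replicates 1, 2 and 5 lay above WT replicates 3 and 4, and replicate 5, the library highest in atrial transcripts, was nearly as high as WT replicates 1 and 2. Myh6 is also the main heavy chain of the atrium, and the part of those transcripts in its level was not tested. The log2 fold change was -0.15 ± 0.09 (SE; 95% interval -0.34 to 0.03; limma, adjusted p = 0.624).

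Myh7 had 1129, 1599 and 1854 normalized counts at the lowest, the median and the highest MC4R-/- library, against 1289, 467, 737 and 1643 in WT replicates 1 to 4. All 6 MC4R-/- libraries lay above WT replicates 2 and 3, while WT replicate 4 lay within the upper part of the MC4R-/- range. The mean was 1519.9 ± 322 in MC4R-/- (SD, n = 6) and 1034 ± 531 in WT (SD, n = 4), a coefficient of variation of 21.2% in MC4R-/- and 51.4% in WT. On the log2 scale the fold change was 0.69 ± 0.36 (SE; 95% interval -0.12 to 1.5; limma, adjusted p = 0.616). Without WT replicate 2, the lowest library and the one with lymphocyte transcripts, it was 0.36 (adjusted p = 0.756).

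The share of Myh7 in the reads of Myh6 and Myh7 together was small and varied between the libraries of both genotypes. In MC4R-/- it was 0.734% (Wilson 95% interval 0.693 to 0.777) at the lowest, 1.05% at the median and 1.37% (1.31 to 1.43) at the highest. In WT it was 0.727% (0.689 to 0.767), 0.259% (0.238 to 0.282), 0.499% (0.458 to 0.543) and 1.1% (1.05 to 1.15) in replicates 1 to 4. These intervals cover counting error only, and those of the WT libraries did not overlap. MC4R-/- replicates 3, 4 and 6 were at 1.29 to 1.37% and replicates 1, 2 and 5 at 0.734 to 0.813%. Their intervals overlapped within each of these sets of libraries, but not between the sets.

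All 6 MC4R-/- libraries were above the WT mean share and 3 were above every WT library. The mean share was 1.05 ± 0.304% in MC4R-/- (SD, n = 6) and 0.645 ± 0.356% in WT (SD, n = 4). The difference of 0.405 percentage points did not pass the threshold (exact two-sided permutation test, p = 0.0905, and 0.226 after Benjamini-Hochberg adjustment over the 5 ratios tested). Without WT replicate 4 the difference was 0.555 percentage points (exact permutation p = 0.0238, not adjusted), and without WT replicate 2 it was 0.276 (exact permutation p = 0.214, not adjusted). With any other library left out the unadjusted p was 0.0714 to 0.159 (exact permutation).

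Reads of Myh6 and Myh7 can be confused in part. Of the 50-base stretches of the Myh7 transcript, 22.6% also occur in Myh6, and the sources used here do not say how such reads were assigned. Reads from those stretches cannot be told apart by sequence. The noncoding RNA Mhrt, transcribed from the opposite strand, shares 463 of its 828 exon bases with exons of Myh7. Mhrt had 368 ± 47.8 normalized counts in MC4R-/- (SD, n = 6) and 413 ± 41.2 in WT (SD, n = 4), and since the strand setting of the counting is not given, its reads and those of Myh7 cannot be told apart there.

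Myh7b had 379, 445 and 580.4 normalized counts at the lowest, the median and the highest MC4R-/- library, against 482, 489, 674 and 703 in WT replicates 1 to 4. WT replicates 3 and 4 lay above every MC4R-/- library and WT replicates 1 and 2 within their range. Its log2 fold change was -0.36 ± 0.15 (SE; 95% interval -0.68 to -0.04; limma, adjusted p = 0.444). The log2 ratio of Myh7b to Myh6 averaged -8.33 ± 0.10 in MC4R-/- and -8.13 ± 0.447 in WT (exact permutation p = 0.314, 0.524 adjusted over the 5 ratios).

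Myh14, the nonmuscle heavy chain, had 549, 632 and 755 normalized counts at the lowest, the median and the highest MC4R-/- library, against 728, 823, 589.8 and 754 in WT replicates 1 to 4. The groups overlapped, and WT replicate 3 lay below the MC4R-/- median. The log2 fold change was -0.19 ± 0.09 (SE; 95% interval -0.39 to 0.0040; limma, adjusted p = 0.536).

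Both ventricular light chains were steadier than the minor heavy chains. Myl2 had 48509, 60075.5 and 65057 normalized counts at the lowest, the median and the highest MC4R-/- library, against 60501, 59639.7, 71446 and 61108 in WT replicates 1 to 4. WT replicate 3 stood above all other libraries, MC4R-/- replicate 3 below them, and 3 of 6 MC4R-/- libraries lay below every WT library. On the log2 scale the fold change was -0.10 ± 0.07 (SE; 95% interval -0.25 to 0.05; limma, adjusted p = 0.711).

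Myl3 varied least of the 6 chain genes, with a coefficient of variation of 6.35% in MC4R-/- and 5.30% in WT. It had 28721, 30761 and 33573.5 normalized counts at the lowest, the median and the highest MC4R-/- library, against 33290.4, 34482, 30395 and 33341 in WT replicates 1 to 4. The groups overlapped, with a log2 fold change of -0.09 ± 0.06 (SE; 95% interval -0.21 to 0.02; limma, adjusted p = 0.641). The log2 ratio of Myl2 to Myl3 averaged 0.93 ± 0.180 in MC4R-/- and 0.94 ± 0.199 in WT (exact permutation p = 0.981, 0.981 adjusted over the 5 ratios).

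Mylk3, the kinase of the regulatory light chain, had 3645, 3898 and 4137 normalized counts at the lowest, the median and the highest MC4R-/- library, against 4503, 4345, 4700.1 and 5040.4 in WT replicates 1 to 4. Every MC4R-/- library lay below every WT library. The mean was 3904 ± 159 in MC4R-/- (SD, n = 6) and 4647 ± 299.5 in WT (SD, n = 4), 16% lower. The log2 fold change of -0.25 ± 0.06 (SE; 95% interval -0.37 to -0.13) had the smallest unadjusted p of the 8 genes but did not pass over all genes (limma, adjusted p = 0.0564). It also missed it by edgeR (adjusted p = 0.0661) and passed it by DESeq2 (adjusted p = 0.00139), and by limma without WT replicate 2 (adjusted p = 0.0217).

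Set against the transcript of its substrate, Myl2, the lower Mylk3 level in MC4R-/- did not pass the threshold. The log2 ratio of Mylk3 to Myl2 was -4.02 at the lowest, -3.93 at the median and -3.73 at the highest in MC4R-/- libraries, against -3.93 to -3.60 in WT, and 3 of 6 MC4R-/- libraries lay below every WT library. The means were -3.91 ± 0.106 in MC4R-/- (SD, n = 6) and -3.76 ± 0.134 in WT (SD, n = 4), with an exact permutation p of 0.0905 and 0.226 adjusted over the 5 ratios. Without MC4R-/- replicate 3, the library lowest in Myl2, the unadjusted p was 0.0317, and without WT replicate 3, the highest in Myl2, it was 0.0476 (exact permutation). With any other library left out it was 0.103 to 0.238 (exact permutation, not adjusted).

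Mylk4 had 1479, 1669 and 1800.1 normalized counts at the lowest, the median and the highest MC4R-/- library, against 1788, 1938, 2331 and 1643 in WT replicates 1 to 4. WT replicates 2 and 3 lay above all MC4R-/- libraries, and WT replicates 1 and 4 within their range. Its log2 fold change was -0.21 ± 0.09 (SE; 95% interval -0.39 to -0.04; limma, adjusted p = 0.39). The log2 ratio of Mylk4 to Mylk3 averaged -1.25 ± 0.102 in MC4R-/- and -1.28 ± 0.259 in WT (exact permutation p = 0.757, 0.946 adjusted over the 5 ratios).

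**Figure D2:**
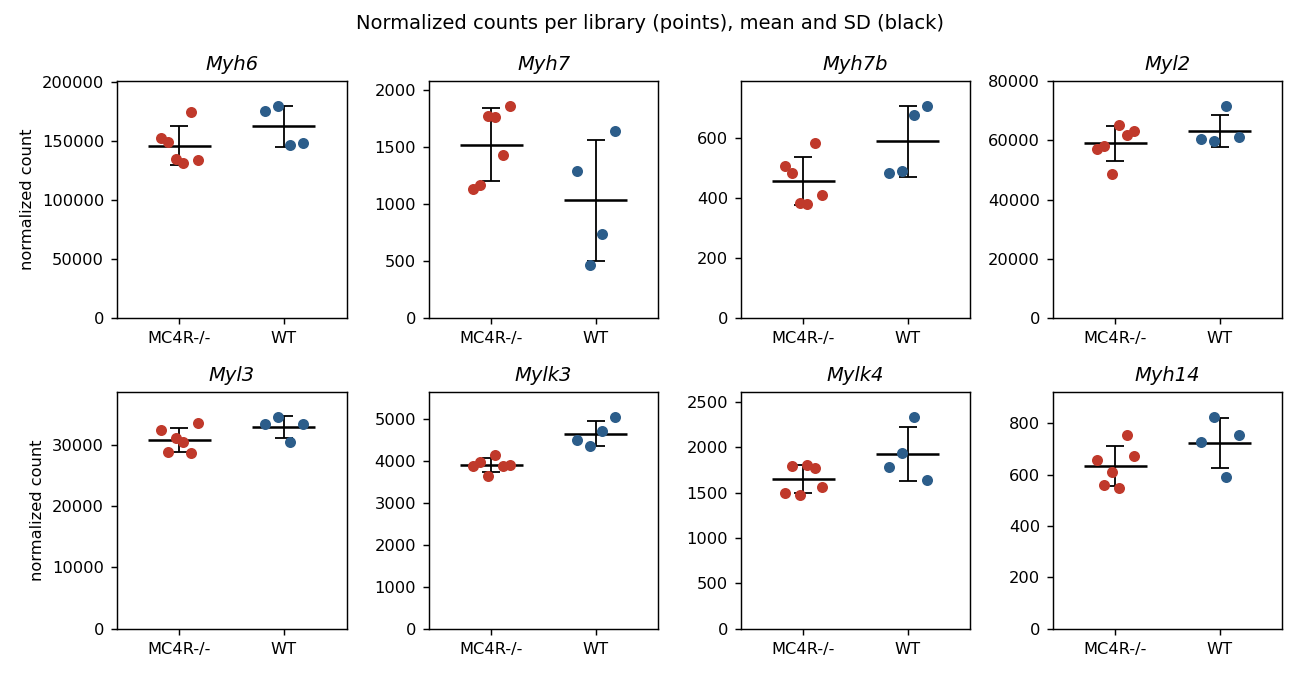
Normalized counts of the 8 genes per library, with the mean (long bar) and SD (error bar), MC4R-/- left in red (n = 6) and WT right in blue (n = 4). Mylk3 is the panel in which the groups do not overlap, 3645 to 4137 in MC4R-/- and 4345 to 5040.4 in WT.

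**Figure D3:**
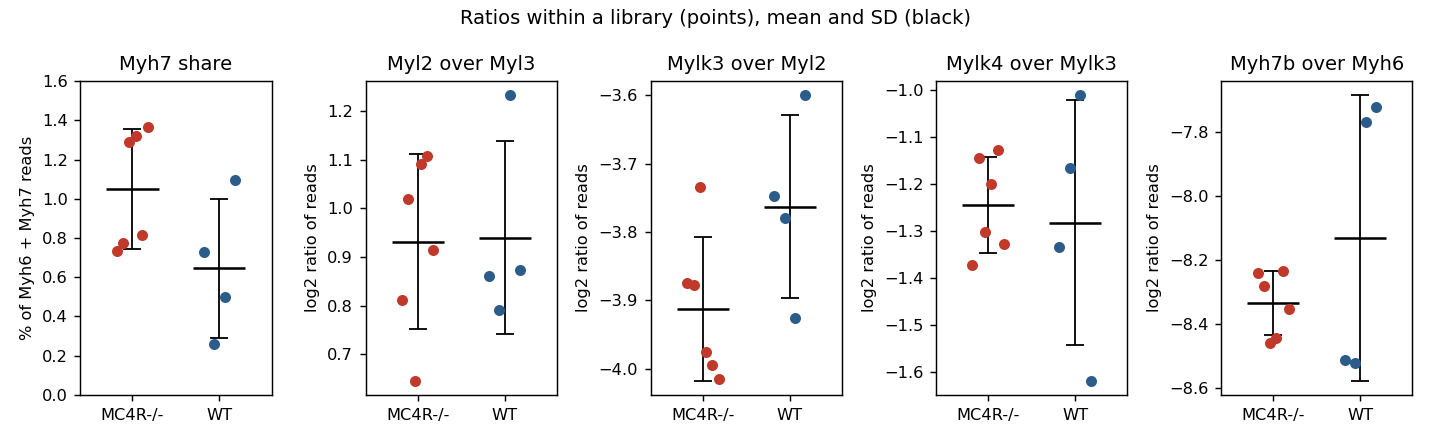
The Myh7 share in percent and 4 log2 ratios of reads per library, with mean and SD, MC4R-/- left and WT right. The Myh7 share runs from 0.734 to 1.37% in MC4R-/- and from 0.259 to 1.1% in WT, and the groups overlap in all 5 panels.

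**Figure D4:**
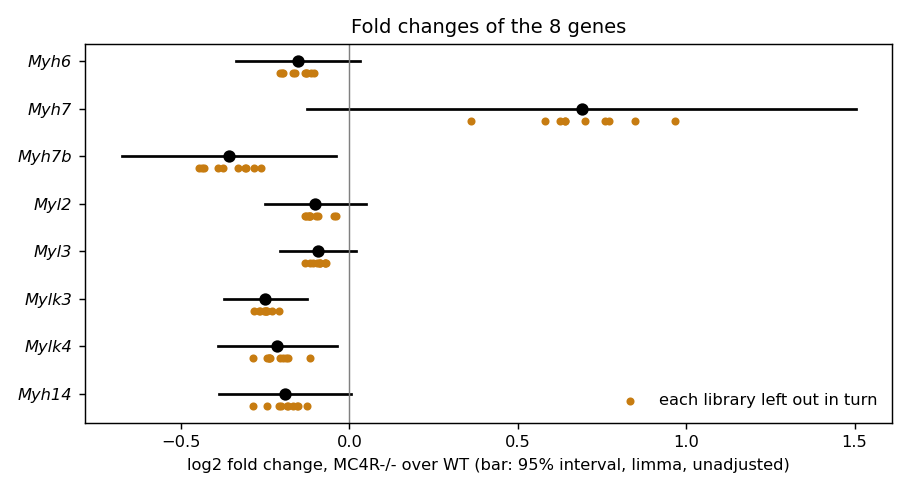
Log2 fold changes of the 8 genes, MC4R-/- over WT, with the unadjusted 95% interval from limma (black) and the value with each library left out in turn (orange). Mylk3 stays between -0.28 and -0.21, while Myh7 ranges from 0.36 to 0.97.

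Genes that work with these chains were compared in the same fit, in 6 lists. Over all 14611 genes tested, 0.459% passed by limma, 0.342% by edgeR and 0.835% by DESeq2. An unadjusted p below 0.05 was found for 9.6% of them (limma). Of 9 partners of the thick filament, 0 passed by limma (2 at p below 0.05 before adjustment), 1 by edgeR and 1 by DESeq2. Mean log2 values were higher for 4 and lower for 5, around a median log2 fold change of -0.02. Myom2, an M-band protein that links thick filaments, had 5123, 7191 and 7556 normalized counts at the lowest, the median and the highest MC4R-/- library, against 7900.2 to 11749 in WT. Its groups did not overlap, and with a log2 fold change of -0.57 ± 0.15 (SE) it missed the threshold by limma (adjusted p = 0.221) and passed it by edgeR (adjusted p = 0.0324) and DESeq2 (adjusted p = 0.0236). Mybpc3, cardiac myosin binding protein C, had 27227 ± 1441 normalized counts in MC4R-/- and 29679 ± 2333 in WT (limma, adjusted p = 0.49). Mybphl, a relative of that protein known from atrium, had 0.978 to 95.2 in MC4R-/-, the highest in replicate 5, and 0 to 4.81 in WT.

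Of 12 other muscle myosin chains, 5 reached the minimum level. Of these 5, 1 gene, Myl1, passed by limma, higher in MC4R-/-, against 0.459% of all genes tested. Mean log2 values were higher for 4 and lower for 1, around a median log2 fold change of 1.06. Myl1 encodes an essential light chain best known from fast skeletal muscle. It had 227, 257 and 304 normalized counts at the lowest, the median and the highest MC4R-/- library, against 203, 162, 172 and 177 in WT replicates 1 to 4. The groups did not overlap. The log2 fold change was 0.54 ± 0.10 (SE; limma, adjusted p = 0.00927), and the adjusted p stayed at or below 0.042 with any 1 library left out. It was 0.0258 by edgeR, 0.000789 by DESeq2 and 0.202 in limma without its trend and robust steps. Of the 8 skeletal markers, Myh2 and Myh4 were listed at 0 in all 10 libraries. Tnni2 ran from 3.48 to 9.12 normalized counts in MC4R-/- and from 1.38 to 6.16 in WT. Of the 5 skeletal markers tested, 3 had a higher mean log2 value in MC4R-/-, and 0 passed by limma. The part of skeletal muscle in the Myl1 level was not tested. Over the 8 skeletal markers the summed level was 8034 to 9534 in MC4R-/- and 8528 to 10997 in WT, nearly all of it Ckm, which heart muscle expresses too. The other 4 muscle myosin chains tested were Mylpf (3.33 ± 1.53 in MC4R-/-, 1.4 ± 1.62 in WT), the smooth muscle heavy chain Myh11 (344 ± 68.9 in MC4R-/-, 408 ± 48.9 in WT) and the atrial chains Myl7 and Myl4, whose highest library was MC4R-/- replicate 5.

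In the other 4 lists no gene passed by limma, edgeR or DESeq2 (0 by each). Nonmuscle myosin II chains (7 genes, 5 with a higher mean log2 value, 1 at an unadjusted p below 0.05) had a median log2 fold change of 0.03. The heavy chain Myh9 had 997 ± 56.0 normalized counts in MC4R-/- and 1135 ± 246 in WT (limma, adjusted p = 0.618), and the light chains Myl6b and Myl12a had 10.04 ± 2.73 and 4514 ± 227 in MC4R-/-, against 5.93 ± 3.76 and 4294 ± 69.6 in WT. Other kinases and phosphatase genes of the regulatory light chain (17 genes, 11 with a higher mean log2 value, 1 at an unadjusted p below 0.05) had a median of 0.04. The phosphatase catalytic subunit Ppp1ca had 1123 ± 43.8 normalized counts in MC4R-/- and 1243 ± 40.9 in WT (limma, adjusted p = 0.433). Calm2, a calmodulin gene, had 689 ± 59.7 in MC4R-/- and 623 ± 75.7 in WT, and the myosin phosphatase targeting subunit Ppp1r12a had 199 ± 15.7 in MC4R-/- and 223 ± 31.1 in WT.

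Myosin folding and turnover genes (9 genes, 7 with a lower mean log2 value, 0 at an unadjusted p below 0.05) had a median log2 fold change of -0.05. The ubiquitin ligase genes Trim63 and Fbxo32 had 1152 ± 71.0 and 1443 ± 49.7 normalized counts in MC4R-/-, against 1271 ± 88.8 and 1529 ± 111 in WT. The muscle methyltransferase Smyd1 had 4945 ± 386 in MC4R-/- and 4688 ± 249 in WT. Factors known to act on the heavy chain genes (26 genes, 16 with a higher mean log2 value, 2 at an unadjusted p below 0.05) had a median of 0.06. Tead1, a factor that binds M-CAT elements, had 1850.3 ± 74.5 normalized counts in MC4R-/- and 1657 ± 212 in WT (limma, adjusted p = 0.453), and the cardiac factor Gata4 had 791 ± 59.4 in MC4R-/- and 712 ± 76.4 in WT (adjusted p = 0.542). Dio2, which makes the active thyroid hormone that raises Myh6 and lowers Myh7 in rodents, had 18.3 ± 10.1 in MC4R-/- and 9.85 ± 0.868 in WT (adjusted p = 0.504). The thyroid hormone receptor gene Thra had 513 ± 63.1 in MC4R-/- and 533 ± 65.3 in WT (adjusted p = 0.898).

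**Figure D5:**
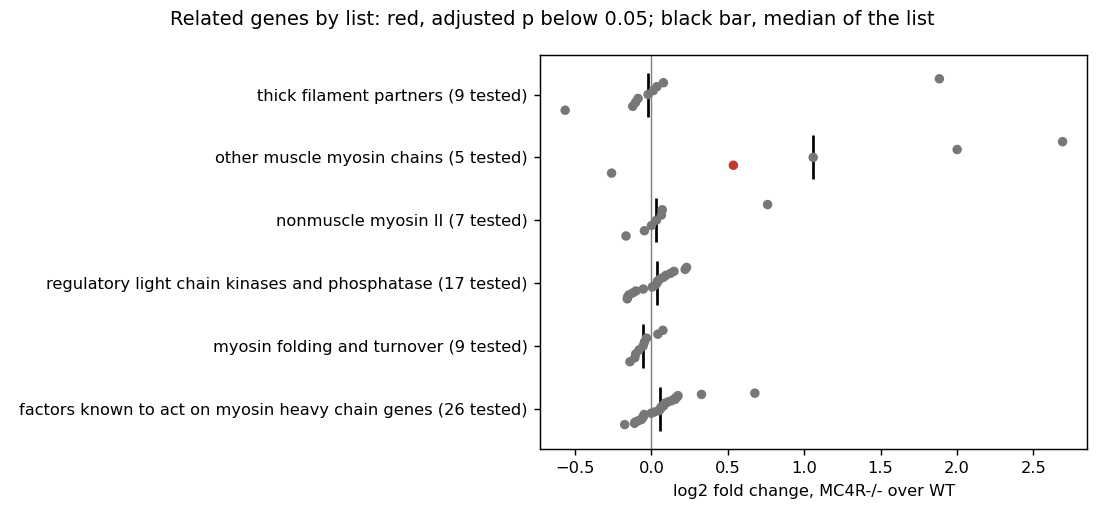
Log2 fold changes, MC4R-/- over WT, of the tested genes of 6 related lists, 1 point per gene, with the median of each list as a black bar. Myl1, at 0.54, is the 1 gene past an adjusted p of 0.05 (red), and the medians of the other 5 lists lie between -0.05 and 0.06. The median of the list that holds Myl1, 1.06, is the value of Mylpf, a gene of few reads.

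Among the genes whose log2 levels followed Myh7 most closely over the 10 libraries were Fibin, Masp1 and Postn, of 8988 genes with a mean of at least 50 normalized counts. Likeness was measured as the root-mean-square difference of log2 levels after each gene was centred on its own mean. It was 0.30 for Fibin, 0.34 for Masp1 and 0.37 for Postn, against a median of 0.62 over all genes compared. A gene at the same level in every library would score 0.60, so the median mostly reflects the spread of Myh7 itself. Postn encodes the matrix protein periostin and had 335 to 487 normalized counts in MC4R-/- and 179.6 to 376 in WT. Masp1, a protease of the lectin complement pathway, had 50.6 to 89.5 in MC4R-/- and 33.4 to 59.9 in WT. None of the 3 passed the threshold between genotypes, with adjusted p of 0.0619 to 0.512 (limma).

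For Mylk3 the closest were Ubr7, Ehd4, Gpr157 and Mfsd1. Their root-mean-square differences were 0.057, 0.059, 0.0596 and 0.0603 on the log2 scale, against a median of 0.20 over all genes compared. Here a gene at the same level in every library would score 0.14. Ehd4, a protein of endosomal transport, had 2584 to 2961 normalized counts in MC4R-/- and 2933 to 3378 in WT. Ubr7 had 243 to 266 in MC4R-/- and 279.8 to 296 in WT. Between genotypes none of these 4 genes passed the threshold, with adjusted p of 0.123 to 0.668 (limma). Both sets of genes were picked for this likeness, which is a description of these 10 libraries.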

How the data were processed

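Libraries of polyadenylated RNA, 6 MC4R-/- and 4 WT, were sequenced after a stranded library preparation from 200 ng of total RNA with an integrity number above 7, per the labels' protocols. Build mm10, Cuffnorm 2.2.1.1, Cuffdiff 2.2.1.3, Cufflinks 2.2.1 and TopHat2 2.1.0 with Bowtie2 are named in the submitters' processing notes. Gene annotation and strand setting were not given in the sources used. The authors deposited signal values, which are reads per gene divided by a size factor per library, as 99.99 to 100.0% of values above 0 came out as whole reads (tolerance 0.1) when divided by the smallest step. They carry no division by length.

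Row accessions were matched to symbols with RefSeq (GRCm38.p6, 23984 rows) and then GENCODE M21 (123 rows, Mylk4 among them), and 53 rows had no symbol. Lengths are means of the GENCODE transcripts with those accessions. Genotype was compared with limma 3.58.1 (trend and robust) in R 4.3.3 on log2(normalized count + 1) over 14611 genes with a mean of at least 1, two-sided, adjusted by Benjamini-Hochberg over all of them. Fold changes understate those of low genes. Ratios were compared with exact permutation tests, whose smallest p is 0.0048. edgeR 4.0.16 (quasi-likelihood) and DESeq2 1.42.0 were run on the recovered reads. Without the 2 doubtful libraries, MC4R-/- replicate 5 and WT replicate 2, the fits were repeated. The procedure was also run on simulated data, and the outcome is not reported here. Named genes are the 8 members, up to 3 genes per list with the smallest unadjusted p, and the 4 genes most like each of Myh7 and Mylk3, of which 1 is not reported here. Thra, Myl7, Myl4 and Mhrt were named after their values were seen. Members and lists were chosen with earlier results of these data known. The replicate numbers are not shown to pair the samples (correlations of same-numbered deviations from -0.15 to -0.03), and the settings tried are given in the closing section.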

Additional observations from a re-analysis of the deposited data

Results flagged for a closer look

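Of 26 sets of values checked (the 8 genes and 5 ratios in each genotype), 1 had a library that stood apart, where chance gives about 1 in 20. Myl2 had 71446 normalized counts in WT replicate 3, far above the 59639.7 to 61108 of the other WT libraries. That library also had the fewest reads, 4145033. Without it the log2 fold change of Myl2 was -0.04 (limma, adjusted p = 0.905).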

How the results depend on the processing

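The 67 genes called by limma became 0 in limma with neither trend nor robust fitting (1290 before adjustment at p below 0.05, and 50 by edgeR), 118 with library weights, 122 by DESeq2, 168 without WT replicate 2 and MC4R-/- replicate 5, and 26 to 117 with 1 library left out. Mylk3 passed the threshold after quantile normalization (log2 fold change -0.25, adjusted p = 0.0402), with library weights (-0.28, adjusted p = 0.0102), by DESeq2 (-0.25, adjusted p = 0.00139) and without WT replicate 2 and MC4R-/- replicate 5 (-0.28, adjusted p = 0.0189). With 1 library left out its fold change ran from -0.28 to -0.21 and its adjusted p from 0.0217 to 0.258. It had adjusted p = 0.32 without limma's trend and robust steps. The cause of these shifts was not tested. Quantile normalization turned Myl3 to 0.0061 and set Myh6 to 0, since Myh6 holds the first rank in every library. The fold changes of Myh7, Myh7b, Myl2, Mylk4 and Myh14 kept their direction and stayed short of the threshold under every alternative run. Of these, Myh7b came closest, at -0.51 without WT replicate 2 and MC4R-/- replicate 5 (limma, adjusted p = 0.0505).

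With 1 library left out, the difference in the Myh7 share ran from 0.276 to 0.555 percentage points. Differences in log2 ratio ran from -0.058 to 0.089 for Myl2 over Myl3, from -0.20 to -0.094 for Mylk3 over Myl2 and from -0.075 to 0.13 for Mylk4 over Mylk3. The replicate block, over replicates 1 to 4, gave 52 called genes, a log2 fold change of -0.25 for Mylk3 (adjusted p = 0.309) and a Myh7 share difference of 0.385 percentage points (its exact p the smallest that 4 pairs allow). It changed no call among the 8 genes. For Myl1 it gave an adjusted p of 0.0785 and for Myom2 0.00434. The same-numbered libraries are not shown to be pairs. At 517 to 2030 Myh7 reads per library, counting error was well below the spread between libraries.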
